A study of Homo sapiens with 34 samples.

Results

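Giant genes are described here as the autosomal protein-coding genes whose RefSeq span on GRCh38.p14 (hg38) is 1 Mb or more, counted between the gene's outer ends with no flanks. Of 19122 autosomal protein-coding genes, 66 met this rule, and they held 91.0 Mb in all. Their spans ran from 1003 kb in NCKAP5 to 2474 kb in RBFOX1. Only the annotation decided membership, and no measured value entered the rule. The rule itself was chosen with earlier results of these data known.

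The measurements were lists of peaks from CUT&Tag, an assay that tethers a transposase to a chromatin mark through an antibody and sequences the DNA it cuts free. The rabbit antibody is described as anti-H3K9me, and the degree of methylation is not given in the labels. COLO320 DM, a colorectal adenocarcinoma line, gave 18 libraries, with 3 each for the perturbations ecSE1, ecSE2, ecSE3, ecSE4 and ecSEcombo and 3 for the vector. PC3 DM, labelled as prostatic adenocarcinoma, gave 16 libraries, with 3 each for ecSE1, ecSE2, ecSE6 and ecSEcombo, 2 for ecSE7 and 2 for the vector. Every library came from 50000 nuclei of cells collected 3 days after transfection with 700 ng of plasmid, and each line had its own Lipofectamine reagent. The labels do not spell out ecSE, place the elements on the genome, or name the effector that the guide RNA plasmids recruit. Each line is 1 established cell line grown in its own medium and transfected with its own reagent, so line, medium and reagent cannot be told apart.

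Genes of this size mostly encode proteins of nerve cells, such as synaptic adhesion molecules, receptors and scaffolds, and lie in gene-poor, late-replicating chromatin. Several overlap common fragile sites, regions that break under replication stress. Methylation of histone H3 at lysine 9 marks silent heterochromatin when it carries more methyl groups, and the single methyl form is also found along active genes.

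The lists held 8971 to 117988 autosomal peaks in COLO320 DM (median 17311) and 9717 to 94524 in PC3 DM (median 24863). Reads per library were not used here, so the sequencing depth is unknown. Counts were therefore also compared at equal list length, with the 8971 best peaks of each library by q-value and then by fold. POU5F1B and PDX1 each had a peak within 2 kb in all 18 libraries from COLO320 DM, against 0 of 16 from PC3 DM. Libraries with the same line label thus agreed at these genes, which does not test the labels themselves.

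Giant genes held fewer peaks per Mb than the rest of the same chromosomes in COLO320 DM and more in PC3 DM. The median was 5.16 peaks per Mb in giant genes against 6.40 in the rest in COLO320 DM, and 12.1 against 8.94 in PC3 DM. As a ratio within each library, the density in giant genes over the rest was 0.754 to 1.11 with a median of 0.830 in COLO320 DM, and 1.14 to 1.51 with a median of 1.35 in PC3 DM. The ratio was above 1 in 1 of 18 COLO320 DM libraries, the longest list (ecSE1 replicate 2), and in 16 of 16 PC3 DM libraries, and the lines did not overlap. At equal list length the ratio was 0.652 to 0.828 in COLO320 DM (median 0.738) and 1.08 to 1.503 in PC3 DM (median 1.25). The same lists placed 222 ± 13.3 peaks in giant genes in COLO320 DM and 368 ± 37.3 in PC3 DM (SD, n = 18 and n = 16), which is 2.47% of the COLO320 DM and 4.10% of the PC3 DM lists. The value for COLO320 DM depends on what stands as the rest: against other protein-coding genes alone the median ratio was 1.22 in COLO320 DM and 1.74 in PC3 DM, both above 1.

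**Figure D1:**
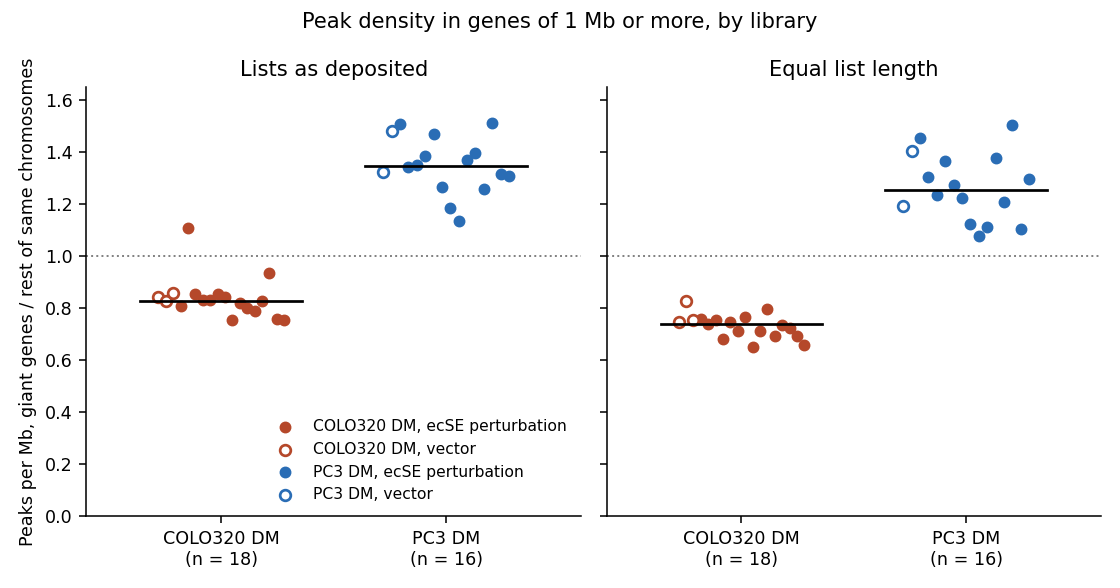
Ratio of peaks per Mb in giant genes to peaks per Mb in the rest of the same chromosomes (y axis), for each library of each line (x axis), from the lists as deposited (left) and at equal list length (right). Filled points are ecSE perturbations, open points vector libraries, lines the medians (on the left 0.830 in COLO320 DM and 1.35 in PC3 DM, on the right 0.738 in COLO320 DM and 1.25 in PC3 DM). The cell lines do not overlap in either panel.

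The gap between the lines widened with gene length. At equal list length, genes under 100 kb had a median ratio of 0.662 in COLO320 DM and 0.693 in PC3 DM. Genes of 300 to 500 kb had 0.664 in COLO320 DM and 0.794 in PC3 DM. Genes of 500 kb to 1 Mb had 0.752 in COLO320 DM and 0.996 in PC3 DM. Giant genes reached 0.738 in COLO320 DM, about the level of genes of 500 kb to 1 Mb there, and 1.25 in PC3 DM. Regions with no protein-coding gene stood at 1.22 in COLO320 DM and 1.18 in PC3 DM. The rest is the chromosome without giant genes, so for all other classes it includes the class itself. Their ratios are thereby pulled toward 1 and do not compare like for like with those of giant genes. These medians are descriptions and were not tested against each other. The genes next to the threshold differed widely among themselves. Just inside, NCKAP5 had a deposited ratio of 0.485 in COLO320 DM and 2.12 in PC3 DM, NKAIN2 0.687 in COLO320 DM and 2.65 in PC3 DM, ADAMTSL1 1.91 in COLO320 DM and 1.35 in PC3 DM. SOX5 there had 0.7996 in COLO320 DM and 0.585 in PC3 DM. Just outside, ASTN2 had 1.03 in COLO320 DM and 1.92 in PC3 DM, CAMTA1 1.18 in COLO320 DM and 1.16 in PC3 DM, DLGAP2 0.0942 in COLO320 DM and 0.293 in PC3 DM. SDK1 there had 1.098 in COLO320 DM and 1.17 in PC3 DM.

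**Figure D2:**
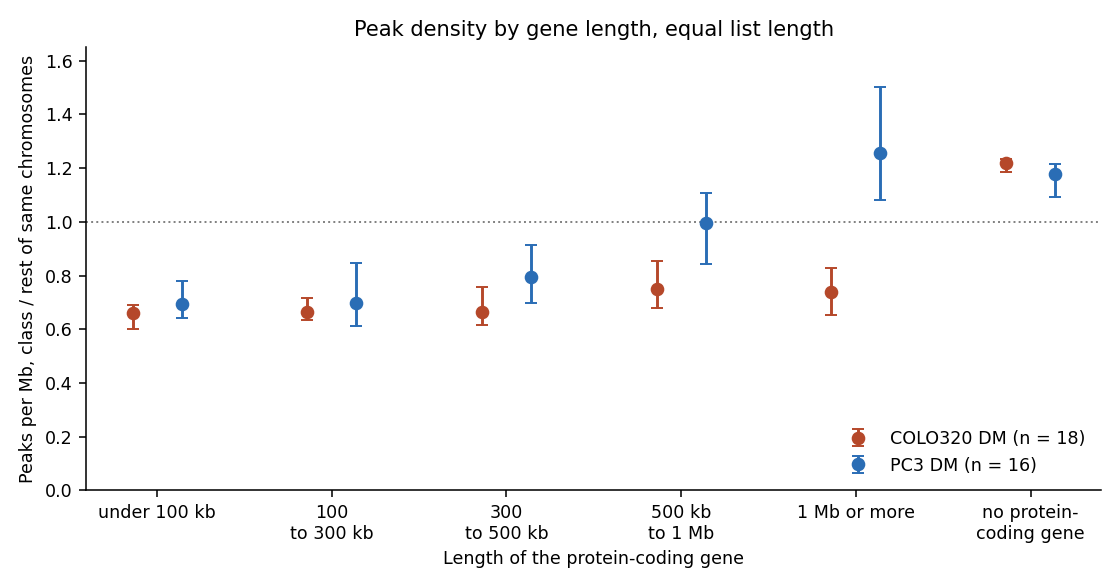
Peaks per Mb in protein-coding genes of each length class over the rest of the same chromosomes (y axis), at equal list length, in COLO320 DM (n = 18) and PC3 DM (n = 16). Points are medians over libraries and bars run from the lowest to the highest library. The rest leaves out giant genes only, so for every other class it includes the class itself. In genes of 1 Mb or more the bars lie at 0.652 to 0.828 in COLO320 DM and 1.08 to 1.503 in PC3 DM.

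Peaks inside giant genes were slightly shorter than those outside in 16 of 18 libraries from COLO320 DM and in 13 of 16 from PC3 DM. Their median length was 360 bp inside and 371 bp outside in COLO320 DM, and 243 bp inside and 250 bp outside in PC3 DM. The fold of summit over local background, the authors' own value for each peak, had a median of 5.68 inside and 5.51 outside in COLO320 DM, and 5.38 inside and 5.35 outside in PC3 DM. It was higher inside in 15 of 18 libraries from COLO320 DM, and in PC3 DM it was higher inside in 6 of 16 and lower in 0. The share of peaks that ranked among the 8971 best of their list was lower in giant genes than outside in 17 of 18 libraries from COLO320 DM and in all 16 from PC3 DM. Peaks covered 0.219% of the giant genes in the median COLO320 DM list and 0.380% in the median PC3 DM list.

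Members spread widely around these densities. Over the 34 libraries, the highest median ratios to the rest of the chromosome were 2.45 in LRMDA, 2.12 in AGBL4, 2.01 in SPAG16, 2.01 in CTNNA3 and 1.97 in PTPRT. LRMDA encodes a leucine-rich protein of melanocyte differentiation, AGBL4 a cytosolic carboxypeptidase that trims glutamates from tubulin, SPAG16 a protein of the sperm axoneme, CTNNA3 the alpha-catenin of heart muscle junctions, and PTPRT a receptor tyrosine phosphatase. Among the lowest ratios were 0.182 in NRG1, 0.337 in PDE4D, 0.351 in CSMD1 and 0.403 in SGCZ. NRG1 encodes neuregulin 1, a ligand of ERBB receptors, PDE4D a cyclic AMP phosphodiesterase, CSMD1 a large CUB and sushi domain protein, and SGCZ zeta-sarcoglycan. The ratio was above 1 in 23 of 66 members in COLO320 DM and in 37 of 66 in PC3 DM, and 50 of 66 had the higher ratio in PC3 DM.

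At equal list length, 48 of the 66 giant genes differed in their number of peaks between the lines in a two-sided permutation test with 100000 resamples and Benjamini-Hochberg adjustment over all 2282 genes tested. Of these, 9 had more peaks in COLO320 DM and 39 more in PC3 DM. The background was 39.9% of all genes tested, 21.2% higher in COLO320 DM and 18.8% higher in PC3 DM, against 72.7% of the giant genes. All 66 members passed the filter of 10 peaks summed over libraries. Of the 32 genes under 1 Mb with as many peaks as the median giant gene, 22 passed (68.8%), 16 of them higher in COLO320 DM and 6 in PC3 DM. The median difference, COLO320 DM minus PC3 DM, was -1.66 peaks per library over the giant genes and -0.02 over all genes tested. With covered length in place of peak number, 48 giant genes passed, 18 of them higher in COLO320 DM and 30 in PC3 DM. Outside giant genes too, peaks were longer in COLO320 DM, with a median of 371 bp against 250 bp in PC3 DM. Lists with equal numbers of peaks therefore need not cover equal lengths. Of the 48 calls by peak number, 39 were kept. The p-values measure the spread between libraries, which may be technical, since nothing in the labels says that replicates were separate cultures.

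**Figure D3:**
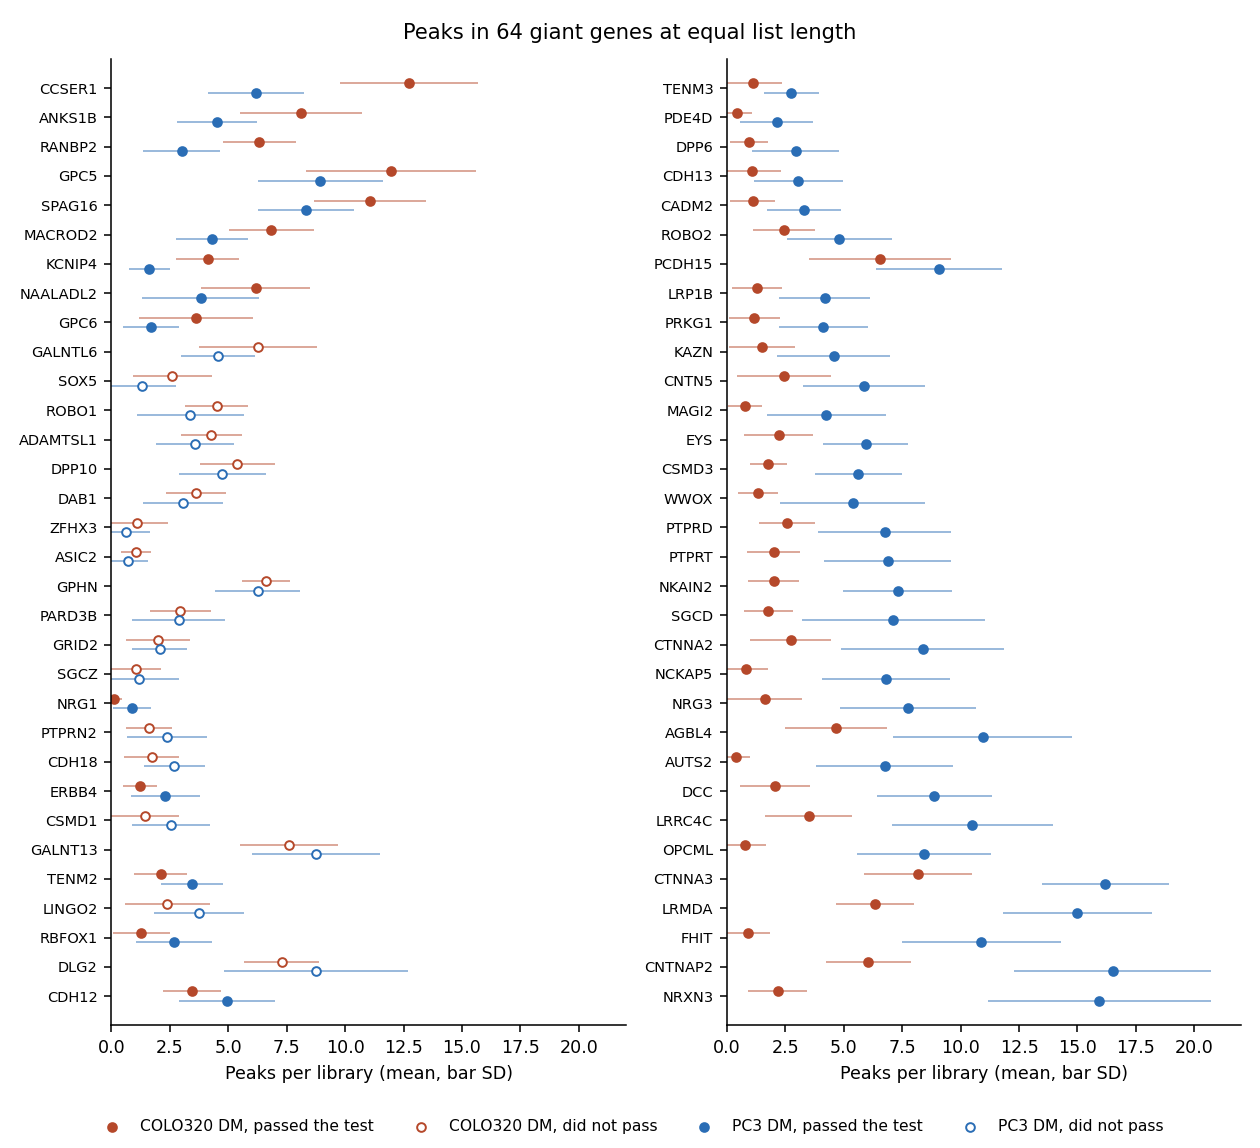
Peaks per library in 64 of the 66 giant genes at equal list length (x axis, mean with SD), COLO320 DM (n = 18) above PC3 DM (n = 16) for each gene, ordered by the difference from CCSER1 (12.7 in COLO320 DM and 6.19 in PC3 DM) to NRXN3 (2.17 in COLO320 DM and 15.9 in PC3 DM). Filled points mark the 46 genes shown that passed the permutation test between lines, open points the 18 that did not.

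NRXN3, CNTNAP2 and FHIT were the 3 members whose counts did not overlap between the lines. Among all genes tested, 0.701% (16 of 2282) had counts that did not overlap. NRXN3 encodes neurexin 3, a presynaptic adhesion protein, and held 0 to 4 peaks with a median of 2 in COLO320 DM libraries and 9 to 24 with a median of 17 in PC3 DM libraries. It averaged 2.17 ± 1.25 peaks in COLO320 DM and 15.9 ± 4.78 in PC3 DM (SD), the widest gap of any member at -13.77 peaks (adjusted p = 0.000107 by the permutation test, from the smallest p that 100000 resamples can give, 1e-05). CNTNAP2, which encodes a neurexin-like protein that clusters potassium channels beside the nodes of axons, held 2 to 8 peaks (median 6.5) in COLO320 DM and 11 to 25 (median 15.5) in PC3 DM. FHIT, a diadenosine triphosphate hydrolase across the fragile site FRA3B, held 0 to 3 peaks (median 1) in COLO320 DM and 4 to 17 (median 10.5) in PC3 DM. FHIT had no peak in 8 of 18 COLO320 DM lists of equal length and in 0 of 16 PC3 DM lists.

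The RefSeq promoter windows at the outer starts of these 3 genes, 250 bases before to 50 after the start on GRCh38.p14, had no peak in any of the 34 deposited lists, like most windows of that length. They are shown 5′ to 3′ on the strand of the gene, as the starts of the only members whose counts did not overlap, with CG dinucleotides in capitals, the pair of letters at which vertebrate DNA is methylated. CNTNAP2 lies at chr7:146116551-146116850 on the plus strand, FHIT at chr3:61251403-61251702 on the minus strand and NRXN3 at chr14:78170123-78170422 on the plus strand.
CNTNAP2: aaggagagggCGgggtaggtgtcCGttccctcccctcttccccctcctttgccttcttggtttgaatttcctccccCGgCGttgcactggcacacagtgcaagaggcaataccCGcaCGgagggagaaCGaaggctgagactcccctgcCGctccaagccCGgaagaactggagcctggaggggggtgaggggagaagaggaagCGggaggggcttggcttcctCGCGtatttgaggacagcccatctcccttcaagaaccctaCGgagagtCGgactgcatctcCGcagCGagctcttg
FHIT: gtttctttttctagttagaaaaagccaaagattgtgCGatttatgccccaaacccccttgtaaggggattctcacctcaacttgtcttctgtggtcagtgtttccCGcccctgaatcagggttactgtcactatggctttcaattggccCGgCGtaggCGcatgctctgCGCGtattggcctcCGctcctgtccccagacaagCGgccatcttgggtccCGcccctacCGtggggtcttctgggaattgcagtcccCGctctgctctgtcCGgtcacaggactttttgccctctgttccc
NRXN3: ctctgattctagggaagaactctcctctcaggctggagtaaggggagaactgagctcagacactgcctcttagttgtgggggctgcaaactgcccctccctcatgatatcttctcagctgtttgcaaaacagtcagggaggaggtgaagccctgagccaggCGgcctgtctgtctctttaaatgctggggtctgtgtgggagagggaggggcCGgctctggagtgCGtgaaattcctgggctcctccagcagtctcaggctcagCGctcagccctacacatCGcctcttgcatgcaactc
The windows held 16, 13 and 5 CG dinucleotides in CNTNAP2, FHIT and NRXN3. The motif CG, which reads the same on both strands, occurred in 96.8% of the 126 listed promoters of 54 giant genes and in 96.0% of all 33725 autosomal promoters of the same length, so it does not set them apart. Of the 126, 13 (10.3%) had a peak in any list, against 7.73% of the 33725. A peak in 2 or more lists was rare in both sets, at 0 of the 126 and 391 of the 33725. Within 5 kb of a listed start, the deposited peaks per Mb over those in the rest of the gene had a median of 0.271 in COLO320 DM and 0.815 in PC3 DM, from 60 peaks in all in COLO320 DM and 186 in PC3 DM. At equal list length the gap was narrower, with medians of 0.391 in COLO320 DM and 0.567 in PC3 DM from 16 peaks in COLO320 DM and 37 in PC3 DM.

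Along the 54 members with a listed strand, peaks were spread over the whole body. With each body cut into 10 equal parts from the start, the median share of the equal-length peaks in COLO320 DM was 12.1% in the part at the start, 13.6% in the next and 8.07% in the part at the end. The same parts held 10.2%, 11.4% and 7.68% in PC3 DM, and the libraries of the lines overlapped in all 3.

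Axon guidance receptors and adhesion proteins of the immunoglobulin and fibronectin type counted 5 members. Of these, 4 passed with more peaks in PC3 DM, 0 passed with more in COLO320 DM and 1 did not pass. OPCML, a lipid-anchored adhesion protein of neurons, had 0 to 3 peaks (median 1) in COLO320 DM and 2 to 13 (median 9) in PC3 DM. DCC, the netrin receptor, had 0 to 6 (median 2) in COLO320 DM and 4 to 12 (median 9) in PC3 DM. The one that did not pass was ROBO1, a receptor for Slit guidance cues, with 4.50 ± 1.34 in COLO320 DM and 3.38 ± 2.28 in PC3 DM (adjusted p = 0.159, permutation test). Its close relative ROBO2 passed, at 2.44 ± 1.34 in COLO320 DM and 4.81 ± 2.26 in PC3 DM (adjusted p = 0.00371, permutation test), and whether the receptors differ from each other was not tested.

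Neurexins, teneurins and leucine-rich synaptic proteins counted 7 members, 6 of which were higher in PC3 DM. Beside NRXN3 and CNTNAP2, LRRC4C, which encodes netrin-G ligand 1, held 1 to 6 peaks (median 3) in COLO320 DM and 6 to 19 (median 10) in PC3 DM. LINGO2 did not pass, at 2.39 ± 1.82 in COLO320 DM and 3.75 ± 1.91 in PC3 DM.

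Cadherins and catenins gave 5 of 6 higher in PC3 DM, and CDH18, a neuronal cadherin, did not pass. CTNNA3 held 5 to 13 peaks (median 8) in COLO320 DM and 11 to 21 (median 16) in PC3 DM. CTNNA3 had a density ratio of 1.74 in COLO320 DM and 2.34 in PC3 DM. Relative to the rest of chromosome 10 the difference did not pass (adjusted p = 0.221, permutation test). Receptor phosphatases and kinases gave 3 of 4 higher in PC3 DM. PTPRT there had 2.00 ± 1.14 peaks in COLO320 DM and 6.88 ± 2.73 in PC3 DM. The member that did not pass was PTPRN2. Of the CUB and sushi or LDL receptor family, CSMD3 and LRP1B passed with more peaks in PC3 DM, and CSMD1 had 1.44 ± 1.46 in COLO320 DM and 2.56 ± 1.67 in PC3 DM (adjusted p = 0.113, permutation test). In each of these 5 groups, 0 members passed with more peaks in COLO320 DM. Of all 66 giant genes 9 did, and of all genes tested 21.2%. With more peaks in PC3 DM, 39 of all 66 giant genes passed, and 18.8% of all genes tested.

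Of the 6 scaffold proteins, 2 passed as higher in PC3 DM, 0 passed as higher in COLO320 DM and 4 did not pass. DLG2, the postsynaptic density protein PSD-93, held 5 to 10 peaks (median 7) in COLO320 DM and 2 to 16 (median 9) in PC3 DM, which overlap (adjusted p = 0.28, permutation test). Among 5 ion channel genes and channel partners, 1 was higher in COLO320 DM, 1 higher in PC3 DM and 3 did not pass. The first was KCNIP4, a calcium-binding partner of Kv4 potassium channels, with 1 to 6 peaks (median 4.5) in COLO320 DM and 0 to 3 (median 1.5) in PC3 DM. Its functional neighbour DPP6, an auxiliary subunit of the same channels, had 0.944 ± 0.802 in COLO320 DM and 2.94 ± 1.84 in PC3 DM (adjusted p = 0.0013, permutation test).

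Both glypicans, heparan sulfate proteoglycans of the cell surface that lie side by side on chromosome 13, had more peaks in COLO320 DM. GPC5 held 6 to 20 peaks (median 12.5) in COLO320 DM and 4 to 14 (median 9) in PC3 DM (adjusted p = 0.0346, permutation test). GPC6 held 0 to 8 (median 4) in COLO320 DM and 0 to 3 (median 2) in PC3 DM (adjusted p = 0.0251, permutation test). Relative to the rest of chromosome 13 the direction turned in both: the difference in the ratio was -1.31 for GPC5 (adjusted p = 0.000116, permutation test) and -0.13 for GPC6 (adjusted p = 0.389). Leaving out any one of 4 libraries, COLO320 DM ecSE1 replicate 3, COLO320 DM ecSE3 replicate 1, PC3 DM ecSE2 replicate 2 or PC3 DM ecSE6 replicate 1, put GPC5 just past the threshold, at adjusted p of 0.0507 to 0.0547 by the permutation test.

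Common fragile site genes counted 16 members, partly shared with the groups above. Of these, 9 passed with more peaks in PC3 DM, 3 passed with more in COLO320 DM and 4 did not pass. That is about the split of all 66 giant genes, with 39 higher in PC3 DM, 9 higher in COLO320 DM and 18 that did not pass. AUTS2, a chromatin regulator of brain development, held 0 to 2 peaks (median 0) in COLO320 DM and 1 to 12 (median 6.5) in PC3 DM. WWOX, an oxidoreductase across the fragile site FRA16D, averaged 1.33 ± 0.840 in COLO320 DM and 5.38 ± 3.10 in PC3 DM. The 3 that were higher in COLO320 DM were CCSER1, MACROD2 and NAALADL2. CCSER1, a coiled-coil protein gene within the fragile site FRA4F, held 7 to 17 peaks (median 13) in COLO320 DM and 3 to 11 (median 6) in PC3 DM, the widest gap in that direction at 6.53 peaks. MACROD2, which encodes a hydrolase of ADP-ribose marks, averaged 6.83 ± 1.82 in COLO320 DM and 4.31 ± 1.54 in PC3 DM. NAALADL2 averaged 6.17 ± 2.33 in COLO320 DM and 3.81 ± 2.51 in PC3 DM, with ranges that overlap.

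Of the 19 members in none of these groups, 10 were higher in PC3 DM, 3 higher in COLO320 DM and 6 did not pass. Among all 66 giant genes the counts were 39, 9 and 18. LRMDA held 4 to 9 peaks (median 6) in COLO320 DM and 9 to 22 (median 15) in PC3 DM, so that the lines met only at 9. AGBL4 held 0 to 9 (median 4) in COLO320 DM and 3 to 16 (median 11) in PC3 DM. NRG3, which encodes neuregulin 3, a ligand of ERBB4, averaged 1.61 ± 1.61 in COLO320 DM and 7.75 ± 2.91 in PC3 DM. NCKAP5 averaged 0.833 ± 0.924 in COLO320 DM and 6.81 ± 2.74 in PC3 DM. The 3 higher in COLO320 DM were ANKS1B, RANBP2 and SPAG16. ANKS1B, a postsynaptic partner of the amyloid precursor protein, averaged 8.11 ± 2.61 in COLO320 DM and 4.50 ± 1.71 in PC3 DM. The annotated span of RANBP2, which encodes a nucleoporin, averaged 6.33 ± 1.57 in COLO320 DM and 3.00 ± 1.63 in PC3 DM. That span of 1123 kb also holds 5 other coding genes. Its 4 recurrent sites lay 148 to 228 kb from the lower end. Which of these genes the peaks lie in was not analysed, so the counts describe the span. SPAG16 averaged 11.1 ± 2.39 in COLO320 DM and 8.31 ± 2.06 in PC3 DM (adjusted p = 0.00527, permutation test), but among the 2000 best peaks its difference was -0.06 (adjusted p = 0.965). Several calls toward COLO320 DM depended on the setting. Relative to the rest of the chromosome, SPAG16 and NAALADL2 no longer passed (adjusted p = 0.564 and 0.248, permutation test). With no filter on genes with few peaks, GPC5, NAALADL2 and GPC6 no longer passed (adjusted p = 0.112, 0.0914 and 0.0803, permutation test). With deposited lists as percentages, GPC5 and KCNIP4 no longer passed (adjusted p = 0.67 and 0.0954, permutation test). Among the 2000 best peaks, CCSER1, ANKS1B, MACROD2, NAALADL2 and GPC6 no longer passed, nor did DCC in the other direction. The span of RANBP2 passed in each of these.

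**Figure D4:**
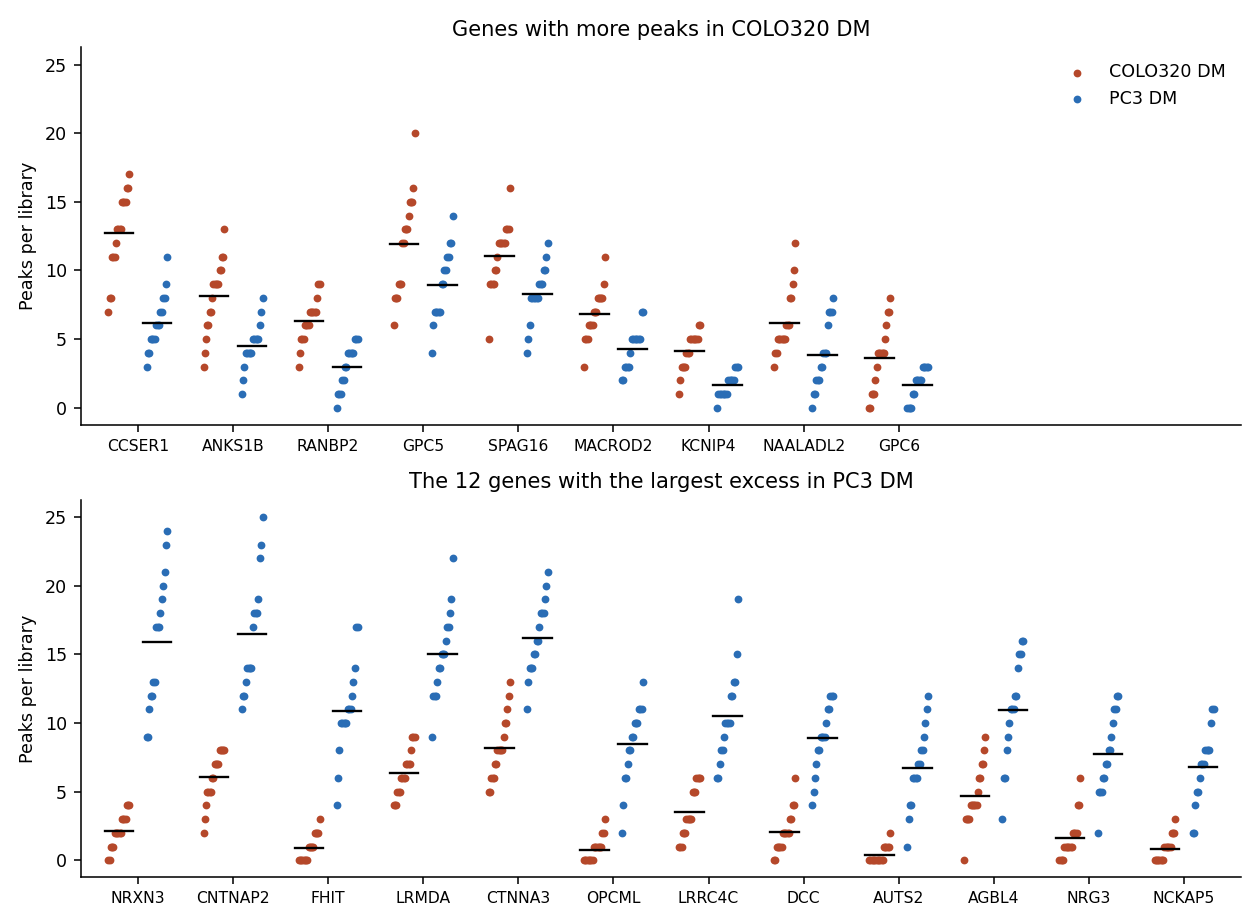
Peaks per library (y axis) at equal list length in the 9 giant genes with more peaks in COLO320 DM (top) and in the 12 with the largest excess in PC3 DM (bottom), COLO320 DM left of PC3 DM for each gene. Each point is a library, and lines are means, such as 12.7 in COLO320 DM and 6.19 in PC3 DM for CCSER1. In NRXN3, CNTNAP2 and FHIT the points of the lines do not overlap.

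Sites that recur between libraries were more numerous in COLO320 DM, in giant genes as in the rest of the same chromosomes. A 5 kb site was called recurrent where at least 50% of the libraries of a line had a peak in it at equal list length. Giant genes held 151 such sites in 128 separate stretches and 40 genes, or 1.66 per Mb, against 2.34 per Mb in the rest of the same chromosomes. Of the 151, COLO320 DM had 119 and PC3 DM 56, with 24 shared. In the rest, COLO320 DM had 4869 and PC3 DM 1965, with 1003 shared. Per Mb, COLO320 DM had 1.31 recurrent sites in giant genes and 1.96 in the rest, and PC3 DM had 0.616 and 0.790. Recurrent sites were thus sparser in giant genes in PC3 DM too, where peaks as a whole were denser. Most sites held a peak in a single library, more so in PC3 DM. Of the 1675 sites in giant genes with a peak in any COLO320 DM library, 64.2% had it in 1 library and 7.104% were recurrent, while of 4126 sites in PC3 DM, 76.4% had it in 1 library and 1.36% were recurrent. In the rest of the autosomes, 57.6% of the sites were in 1 library and 9.61% were recurrent in COLO320 DM, and 72.7% were in 1 library and 2.65% recurrent in PC3 DM. With both lines pooled, giant genes held more sites with a peak in any library than the rest, at 56.3 against 43.2 per Mb, but fewer recurrent ones. The pooled density leaned on PC3 DM, with 4126 such sites in giant genes against 1675 in COLO320 DM. In the rest of the autosomes the lines were closer, at 82275 in PC3 DM and 53208 in COLO320 DM. The pooled contrast therefore need not hold in COLO320 DM alone.

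The members with the most recurrent sites were LRMDA with 12 and SPAG16 and CCSER1 with 9 each. CTNNA3, GALNT13, GPHN and PCDH15 followed with 8 each. GALNT13 encodes an enzyme that starts O-linked sugar chains, GPHN gephyrin, the anchor of inhibitory synapses, and PCDH15 a protocadherin of the hair cell tip link. GPHN and GALNT13 did not differ in their number of peaks between lines beyond the threshold, with GPHN at 6.61 ± 1.04 in COLO320 DM and 6.25 ± 1.81 in PC3 DM. GALNT13 stood at 7.61 ± 2.09 in COLO320 DM and 8.75 ± 2.74 in PC3 DM. Yet GALNT13 held 8 and GPHN 5 sites that differed. No recurrent site lay in 26 of the 66 members.

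The most widely shared site was chr10:75580001-75585000 in LRMDA, 151 kb from the lower end of the gene, with a peak in all 18 libraries of COLO320 DM and all 16 of PC3 DM. Its best peak ranked 69 in a COLO320 DM list and 6 in a PC3 DM list. SPAG16 had a peak at chr2:213475001-213480000 in 17 COLO320 DM and 16 PC3 DM libraries. CTNNA3 had one at chr10:67680001-67685000 in 18 COLO320 DM and 15 PC3 DM libraries. Of 2 adjoining sites in GPHN, chr14:66940001-66945000 was present in 17 COLO320 DM and 15 PC3 DM libraries, and chr14:66945001-66950000 in 18 COLO320 DM and 14 PC3 DM libraries. Sites in CDH12 (chr5:22335001-22340000) and ADAMTSL1 (chr9:18530001-18535000) were each present in 18 COLO320 DM and 12 PC3 DM libraries. Where a peak had to overlap the site by 500 bp, the ADAMTSL1 site was less shared. Its difference, COLO320 DM minus PC3 DM, was then 81.9 percentage points (adjusted p = 2.73e-05, Fisher's exact test). Another SPAG16 site, chr2:213520001-213525000, was present in 18 COLO320 DM and 7 PC3 DM libraries and passed the test between lines (adjusted p = 0.00262, Fisher's exact test), but not in the lists as deposited (adjusted p = 0.1001). The positions within exons or introns were not analysed here.

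LRMDA also hosts the microRNA gene MIR606, whose hairpin at chr10:75552458-75552553 carried a peak in 0 COLO320 DM and 3 PC3 DM deposited lists, the only microRNA hairpin of the 25 inside giant genes with a peak in more than 1 list. Within 2500 bp of the hairpin, 8 COLO320 DM and 7 PC3 DM lists had a peak. Other small RNAs were not examined. The mature RefSeq sequence is shown as that of the one microRNA whose hairpin carried a peak in more than 1 list, with the seed in capitals.
hsa-miR-606: aAACUACUgaaaaucaaagau

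Between lines, 111 of the 751 tested sites in giant genes differed by Fisher's exact test, two-sided, with Benjamini-Hochberg adjustment over 25400 sites (14.8%, against a background of 19.1%). Of these, 82 (10.9% of those tested) were present in more COLO320 DM libraries, where the background was 15.3%. The other 29 (3.86%) were present in more PC3 DM libraries, where the background was 3.82%. Over all sites tested, 3882 were present in more COLO320 DM libraries and 970 in more PC3 DM libraries, so the background leaned toward COLO320 DM too. In giant genes the share toward COLO320 DM was below the background, and the share toward PC3 DM was about equal to it. The sites lay in 39 of the 66 genes. In the lists as deposited, 96 of 5133 tested sites in giant genes differed (1.87%, against a background of 3.59%). The test counts libraries with and without a peak, and 5 of the 24 sites recurrent in both lines had too few libraries without one to be tested.

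The following sites were chosen for their size of difference after the values were seen. A site in KCNIP4, chr4:20735001-20740000, was present in all 18 libraries of COLO320 DM and in 0 of 16 of PC3 DM (adjusted p = 5.31e-08, Fisher's exact test), and in 18 COLO320 DM and 2 PC3 DM lists as deposited. GPC5 had the same split, 18 COLO320 DM against 0 PC3 DM libraries, at chr13:92690001-92695000. LRMDA had the reverse at chr10:76035001-76040000, present in 0 of 18 libraries of COLO320 DM and in all 16 of PC3 DM, in the deposited lists too. In TENM2, a teneurin of synapse formation, chr5:167225001-167230000 was present in 17 COLO320 DM and 0 PC3 DM libraries, although the whole gene had fewer peaks in COLO320 DM, at 2.11 ± 1.13 against 3.44 ± 1.31 in PC3 DM (adjusted p = 0.0167, permutation test). In CTNNA3, chr10:66225001-66230000 was present in 1 COLO320 DM and 15 PC3 DM libraries. Further sites present in 14 to 17 COLO320 DM and 0 to 2 PC3 DM libraries lay in ADAMTSL1, ANKS1B, CCSER1, CTNNA3, DLG2, DPP10, GALNT13, GPC5, KCNIP4, MACROD2, NAALADL2, PTPRD, RANBP2, ROBO1 and TENM2. Among the 12 sites with the largest difference, 3 had no call where a peak had to overlap the site by 500 bp. That limit is above the median peak length in giant genes in both lines, 360 bp in COLO320 DM and 243 bp in PC3 DM. In KCNIP4, chr4:21105001-21110000 was present in 15 COLO320 DM and 0 PC3 DM libraries, and the difference shrank to 22.2 percentage points (adjusted p = 0.169, Fisher's exact test). In ADAMTSL1, chr9:17980001-17985000 was present in 16 COLO320 DM and 0 PC3 DM libraries, and the difference shrank to 11.1 percentage points, with too few libraries to be tested. The third, chr5:167230001-167235000 in TENM2, adjoins the TENM2 site above and had no peak left in either line.

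**Figure D5:**
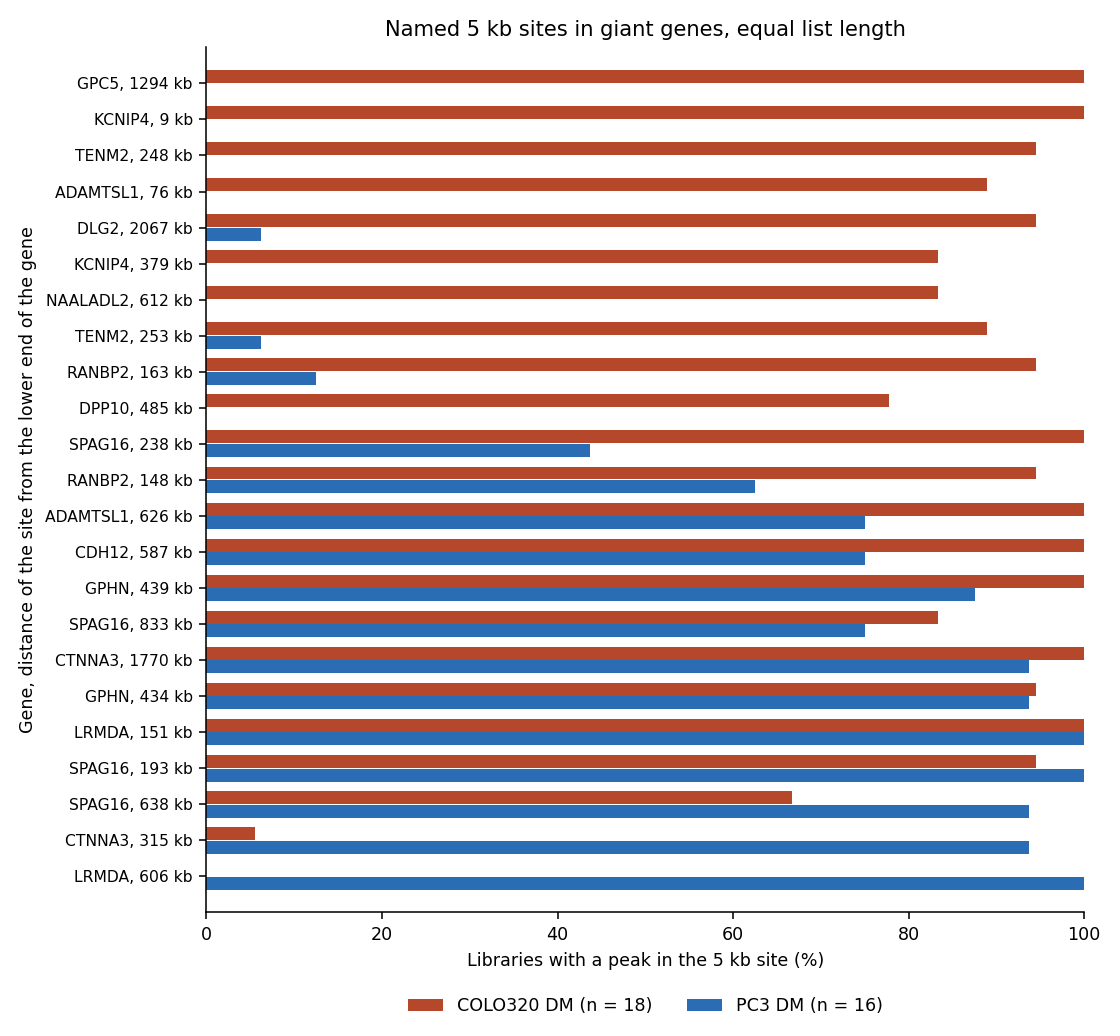
Percentage of libraries with a peak (x axis) in 23 sites of 5 kb within giant genes, named by gene and distance from its lower end (y axis), COLO320 DM (n = 18) above PC3 DM (n = 16). They were taken from the 12 sites present in the most libraries and the 12 with the largest difference, from GPC5 at 1294 kb (18 COLO320 DM and 0 PC3 DM libraries) to LRMDA at 606 kb (0 COLO320 DM and 16 PC3 DM libraries).

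The perturbations of ecSE elements were compared with the vector within each line at equal list length. Giant genes together held 219 ± 11.8 peaks in 15 perturbed and 236 ± 12.3 in 3 vector libraries of COLO320 DM, and 366 ± 37.6 in 14 perturbed and 377 ± 47.4 in 2 vector libraries of PC3 DM (SD). By plasmid, the means in COLO320 DM were 229 for ecSE1, 216 for ecSE2, 215 for ecSE3, 224 for ecSE4 and 211 for ecSEcombo. In PC3 DM they were 387 for ecSE1, 374 for ecSE2, 322 for ecSE6, 380 for ecSE7 and 374 for ecSEcombo. The 3 ecSE6 libraries, singled out after their values were seen, lay at 313 to 327, below both PC3 DM vector libraries at 343 and 410, but ecSEcombo replicate 2 lay there too, at 318. In the lists as deposited, the density ratio of ecSE6 replicate 3 was 1.37, above the 1.32 of vector replicate 1. No test was made of these totals.

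For single genes, all perturbation plasmids of a line were pooled against its vector. The exact permutation test over samples called 0 of the 62 giant genes tested in COLO320 DM, where 0% of all 1361 genes tested were called. In PC3 DM it called 0 of 66, where 0% of 1323 were called. At an unadjusted p under 0.05 there were 37 genes in COLO320 DM, 2 of them giant genes, and 18 in PC3 DM, 0 of them giant genes. The 2 were TENM2, with 1.80 peaks in perturbed and 3.67 in vector libraries (exact permutation p = 0.0159, adjusted p = 1), and LRP1B, with 1.00 in perturbed and 2.67 in vector libraries (exact permutation p = 0.0221, adjusted p = 1). The smallest p was 0.00123 from 816 splits in COLO320 DM and 0.00833 from 120 splits in PC3 DM. With so few vector libraries, at least 34 genes in COLO320 DM and 221 in PC3 DM would have to reach that smallest p before any could be called. The median difference over giant genes, perturbed minus vector, was -0.37 peaks in COLO320 DM, where all genes tested had 0.07, and 0.18 in PC3 DM, where all genes tested had 0.14. A test of whether the effect of perturbation differed between lines, by permutation within lines, called 0 of 2282 genes (0%). At an unadjusted p under 0.05 there were 101, with 4 giant genes among them. Here too the plasmids were pooled, although ecSE3 and ecSE4 were used only in COLO320 DM and ecSE6 and ecSE7 only in PC3 DM. With different plasmids and few vector libraries, the test cannot tell whether the lines respond alike.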

How the data were processed

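Processed data were 34 MACS2 narrowPeak lists on hg38, 1 per library, with no reads used here. The submitters' processing notes name MACS2 2.2.7.1, Bowtie2 2.3.5, Trim Galore 0.6.6, bedtools and SAMtools, without their order. The deposited lists are named for an FDR of 0.001 and for removal of blacklisted regions. The fold column is the ratio that the authors' MACS2 run gave for each summit over background in the same library, and it is not scaled between libraries. The authors' columns of -log10 p-values and -log10 q-values belong to single peaks and served only to rank and filter within a list. The score column, a display value as deposited, was not used. For the use of a control library in peak calling, nothing was found in the labels.

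Sample titles gave each library its line, plasmid and replicate number. A peak was counted in a gene where its summit lay in the RefSeq span. Peaks per Mb were set against the rest of the same chromosomes, taken from the first to the last summit in any list, without giant genes. The same rest served for the other length classes, which it therefore includes. Equal list length means the 8971 best autosomal peaks, the length of the shortest list. Genes with at least 10 peaks summed over the libraries compared were tested by permutation of the mean count (100000 resamples between lines, exact within lines), and 5 kb bins by Fisher's exact test where 3 or more libraries had a peak and 3 or more had none, both two-sided at an adjusted p under 0.05. Neighbouring bins share peaks, so bins are not independent. Arrangement by role used lists drawn up from general knowledge. The members, lists and tests were chosen with earlier results of these data known. Named genes were those that passed between lines (up to 12 per direction), the 5 highest and 5 lowest in density, the 5 with the most recurrent sites, 4 on either side of the threshold, and the 12 sites present in the most libraries. Further members were named from the role lists after their values were seen. The values of 2 members are not reported here by name, and they stay in all counts. Promoter and microRNA sequences are RefSeq's on GRCh38.p14, and 54 of 66 members matched the promoter table. The tests were tried on simulated counts first. Python 3.11.15, numpy 2.4.6, pandas 2.3.3 and scipy 1.17.1 were used.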

Additional observations from a re-analysis of the deposited data

How the results depend on the processing

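The density ratio in giant genes kept its side of 1 in both lines under every setting run except 1. With other protein-coding genes alone as the rest, it was 1.22 in COLO320 DM and 1.74 in PC3 DM. At equal list length it was 0.738 in COLO320 DM. Leaving out each library in turn gave 0.829 to 0.830 in COLO320 DM and 1.34 to 1.35 in PC3 DM. As a median over libraries, the ratio can then move only to a neighbouring middle value, so a narrow range was bound to follow. Single libraries ran from 0.754 to 1.11 in COLO320 DM and from 1.14 to 1.51 in PC3 DM. The number of giant genes that differed between lines was 45 to 49 with each library left out and 31 among the 2000 best peaks, where 51 could be tested. By covered length 39 of the 48 calls were kept and 2 changed direction. Among the 2000 best peaks 26 were kept and 3 changed direction. Relative to the rest of the chromosome, an alternative added after seeing the data, 44 giant genes differed, 40 of them among the original 48, of which 3 had turned. Among the 21 genes named by the test between lines, 3 turned: SPAG16 at -0.0625 among the 2000 best peaks, and GPC5 at -1.31 and GPC6 at -0.13 relative to the chromosome. The causes were not tested.

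Recurrent sites numbered 282 in the lists as deposited, 50 with an overlap of 500 bp, 95 among the 5000 best peaks and 69 at 75% of libraries, and 139 to 149 with each library left out. Sites that differed between lines numbered 52 with an overlap of 500 bp and 100 to 113 with each library left out. The cause was not tested, except that fewer peaks or a stricter limit leave fewer sites by construction. Counts of genes changed by perturbation were 0 to 0 with each library left out.

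Replicate numbers do not mark a shared origin in the labels, and same-numbered libraries of a line did not deviate together (median correlation -0.0011 over 81 pairs, 3 of them above 0.1). With the replicate number as a block, 48 giant genes and 105 sites differed between lines, and 0 giant genes differed between perturbed and vector libraries in either line. Between the vector libraries alone no gene could be called. Depth was unknown, so lists could be matched only by length.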

Other observations

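Long stretches with no peak differed between the lines. They were picked after the values were seen, from the lists as deposited, from the widest gaps between neighbouring summits of all libraries of a line. The 0 in the line that gave a gap therefore follows from the choice. A stretch of 180 kb at the lower end of AUTS2 held 0 peaks in COLO320 DM and 73 from all 16 PC3 DM lists. OPCML had 176 kb with 0 peaks in COLO320 DM and 58 from 15 PC3 DM lists, GPHN, whose span also holds 12 other coding genes, 189 kb with 0 in COLO320 DM and 33 from 14 PC3 DM lists, and FHIT 129 kb with 0 in COLO320 DM and 61 from 12 PC3 DM lists. The whole of AUTS2, 1195 kb, held 55 peaks over the COLO320 DM lists and 496 over the PC3 DM lists. The whole of FHIT, 1504 kb, held 113 in COLO320 DM and 701 in PC3 DM. Other wide gaps of COLO320 DM held few peaks in PC3 DM: MACROD2 had 153 kb with 10 peaks from 9 PC3 DM lists, CSMD1 137 kb with 10 from 9 lists, and KCNIP4 130 kb with 8 from 7 lists. Among gaps of PC3 DM, GPC6 had 57.1 kb with 14 peaks from 8 COLO320 DM lists, and SOX5 41.4 kb with 11 from 8 lists. In RANBP2, 112 kb was empty in PC3 DM and lay within a stretch of 114 kb that was empty in COLO320 DM. No test was made of these gaps.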
